A study of Danio rerio with 6 samples.

Results

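The genes described here encode the nuclear subunits of the oxidative phosphorylation system, with the assembly factors that share their names. They were chosen by symbol alone: every gene of the deposited count table whose symbol begins with nduf, sdha to sdhd, uqcr, cycs, cox4 to cox8 or atp5, together with cyc1. That rule took 94 of 14781 genes, of which 43 belong to complex I (nduf), 8 to complex II (sdh), 9 to complex III (uqcr and cyc1), 17 to complex IV (cox) and 16 to ATP synthase (atp5), and 1 is cytochrome c (cycsb). By class, 82 are structural subunits or cytochrome c and 12 are assembly or associated factors. Subunits encoded by mitochondrial DNA have other symbols and were not taken by the rule.

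RNA came from zebrafish neuroblastomas, which are labelled as arising in peripheral sympathetic tissue. One group of 3 libraries carried transgenic MYCN overexpression together with knockout of gas7 (knockout), and the other 3 libraries carried MYCN overexpression alone (MYCN-only). The MYCN oncogene is thus shared by every tumour and there is no normal tissue in the comparison, which asks what the loss of gas7 changes in a MYCN-driven tumour. The labels give neither the age of the fish, nor the promoter of the transgene, nor the gas7 allele, and they do not say whether each library came from a separate fish; the p-values below cover the spread among these libraries and no more.

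Oxidative phosphorylation passes electrons from NADH (complex I) and succinate (complex II) through ubiquinone, complex III and cytochrome c to oxygen at complex IV. The proton gradient built on the way drives ATP synthase. Several subunits exist as isoforms from separate genes, and in mammals some of these are characteristic of heart and skeletal muscle.

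Total counts were between 20310441 and 33305326 in the knockout libraries and between 12054844 and 16624086 in the MYCN-only libraries. Levels are given as CPM, the counts of a gene relative to the total of its library, scaled by the trimmed mean of M values (TMM). The targeted gene could be read only through gas7a, which had 14.8, 13.9 and 10 CPM in the knockout libraries and 23, 9.69 and 32.7 CPM in the MYCN-only libraries. The groups overlapped (log2 fold change −0.76 ± 0.47 SE, edgeR quasi-likelihood test, adjusted p = 0.411), and since the allele and the targeted copy are not given, gas7a checks nothing about the labels. Of the sympathetic markers, th and dbh, enzymes of catecholamine synthesis, were abundant in all libraries. th had 4868, 2558 and 3186 CPM in knockout and 1664, 3784 and 2323 CPM in MYCN-only tumours. dbh had 5152, 1402 and 2260 CPM in knockout and 2258, 2920 and 3135 CPM in MYCN-only tumours, and the groups overlapped for both. The markers as a list did not share a direction with these: 10 of 15 tested had a log2 fold change below 0. By edgeR at an unadjusted p under 0.05, 0 were higher (against 11.5% of all genes tested) and 3 lower (20%, against 7.57%). Among the lower ones, ddc, the next enzyme after th, had 248, 104 and 153 CPM in knockout and 539, 831 and 506 CPM in MYCN-only tumours, and the regulator tfap2a had 187, 206 and 200 CPM in knockout and 583, 309 and 401 CPM in MYCN-only.

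Libraries stood apart in markers of other tissues. Knockout libraries 2 and 3 held RNA of ovary and oocyte genes. The 11 tested markers summed to 26.7, 4983 and 6070 CPM in knockout libraries 1, 2 and 3 and to 10.2, 11.2 and 13.5 CPM in the MYCN-only libraries. The 15 tested markers of skeletal and heart muscle summed to 1177, 410 and 521 CPM in knockout libraries 1, 2 and 3. In MYCN-only libraries 1, 2 and 3 they summed to 1356, 7311 and 312 CPM, so MYCN-only library 2 was far above the rest. Of the 15 muscle markers tested, 13 had log2 fold changes below 0 and 2 above 0, and their median was −2.12. By edgeR at an unadjusted p under 0.05, 6 were lower (40%, against 7.57% of all genes) and 0 higher. For 4 of the 15, every knockout library was below every MYCN-only library. Liver markers summed to 19664, 4760 and 7422 CPM in knockout and 529, 27483 and 8804 CPM in MYCN-only libraries. Macrophage markers summed to 628, 450 and 166 CPM in knockout and 357, 316 and 238 CPM in MYCN-only libraries. Markers of exocrine pancreas, intestine and kidney tubule had median log2 fold changes of −2.70, −3.81 and −1.64. All 7 of the tested pancreas markers had every knockout library below every MYCN-only library, where 12.3% of all genes tested did. Counts are also given without knockout library 1 and with knockout libraries 2 and 3 left out. The part of other tissues in the results below was not tested, and in bulk RNA fewer cells of a type cannot be told apart from less RNA per cell.

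No oxidative phosphorylation gene passed the test between genotypes. The filter on low counts left 91 of the 94 genes, among 12821 genes tested in all, and edgeR called 0 of them at an adjusted p under 0.05, as it called 0% of all genes. The smallest adjusted p among the 91 was 0.187. At an unadjusted p under 0.05, 4 genes were higher in the knockout (ndufaf2, cycsb, uqcrfs1 and ndufa11), where 11.5% of all genes tested were, and 1 was lower (cox6a2), where 7.57% of all genes were. Both counts lay below the share over all genes. Of the 91, 7 had every knockout library above every MYCN-only library, against 11.6% of all genes, and 2 had every knockout library below, against 12.3% of all genes. DESeq2, run as an alternative, called 1 gene higher (uqcrfs1) and 1 lower (cox6a2) at an adjusted p under 0.05, where it called 6.34% and 4.06% of 12722 genes, while limma-voom called 0 of the 91.

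The median log2 fold change over the 91 genes was 0.16 and that over all genes tested was 0.04. Single log2 fold changes lay between −1.56 (cox6a2) and 1.20 (ndufaf2), and 67 genes were above 0 and 24 below. Over all genes tested, 6716 of 12821 were above 0 and 6105 below. By complex, the median was 0.18 for complex I, 0.30 for complex II, 0.17 for complex III, 0.14 for complex IV and −0.06 for ATP synthase. The standard error of a single gene's fold change had a median of 0.32. Under upper-quartile scaling the median over all genes moved to −0.14 and that over the 91 genes to −0.02, with 0.01 for complex I, 0.12 for complex II, 0.00 for complex III, −0.02 for complex IV and −0.23 for ATP synthase.

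**Figure D1:**
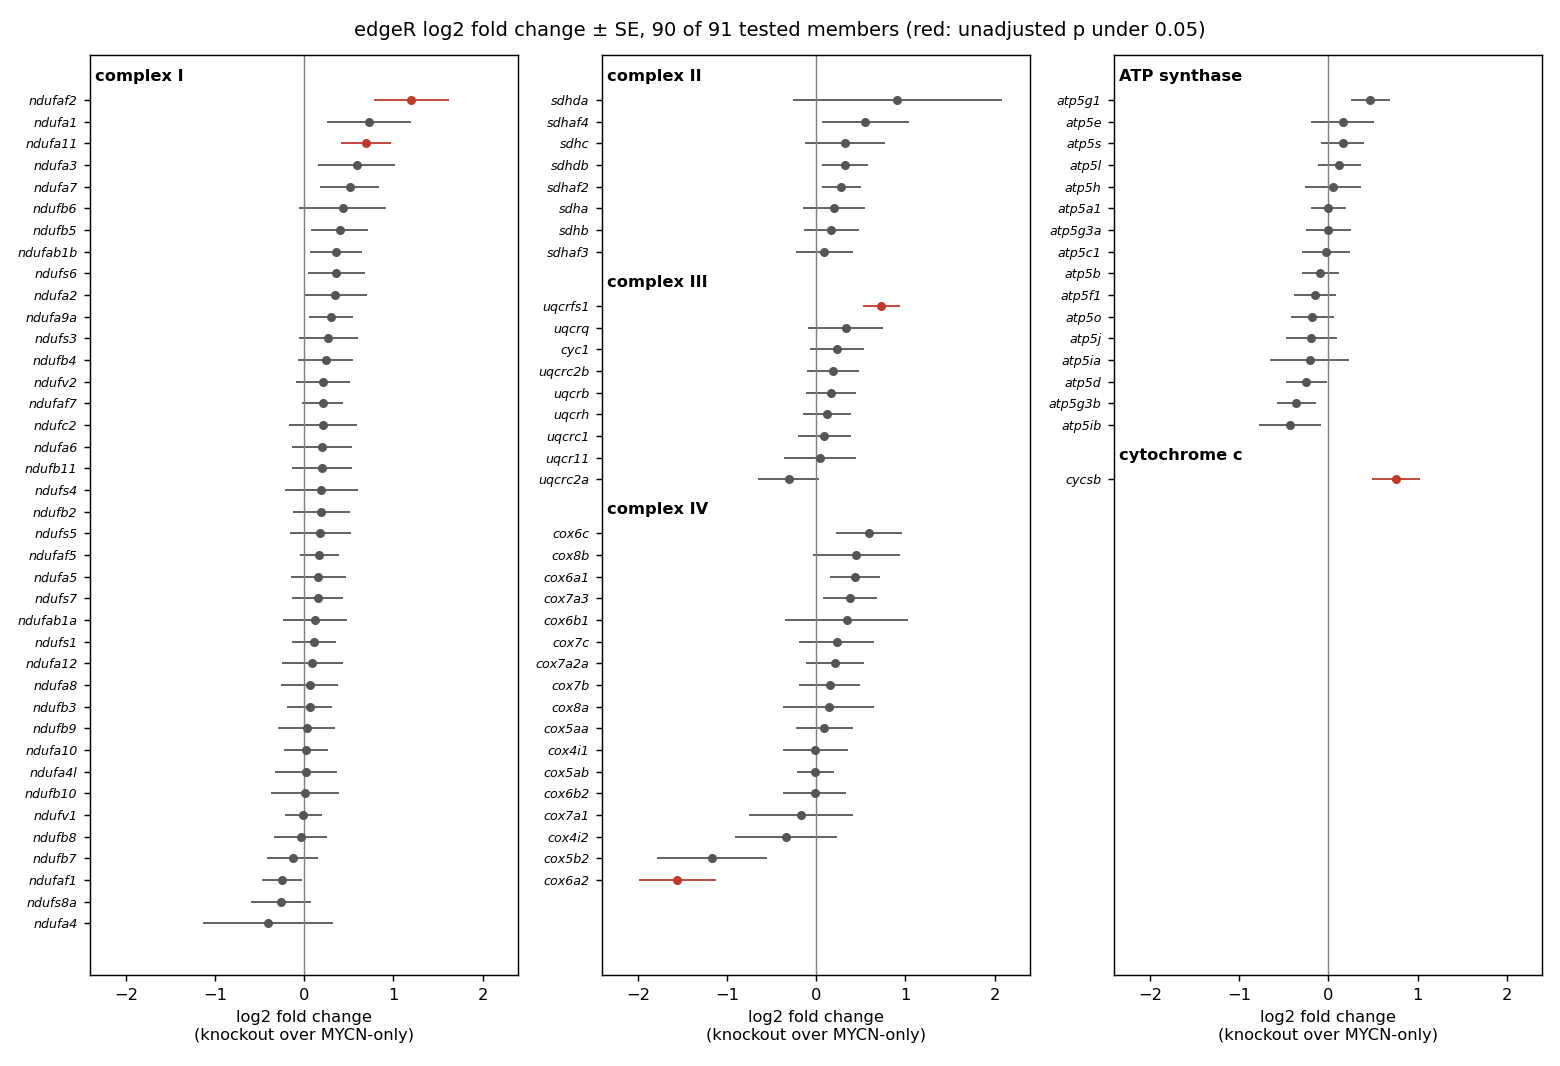
Log2 fold change (knockout over MYCN-only, x axis) with its standard error from edgeR for 90 of the 91 tested genes (y axis), by complex and ordered by size within it; red marks an unadjusted p under 0.05. The 4 red genes to the right of 0 are ndufaf2, ndufa11, uqcrfs1 and cycsb, the 1 to the left is cox6a2, and most other bars reach across 0.

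The larger pattern was between the knockout tumours themselves. Knockout library 1 held the highest value of the 6 libraries for 75 of the 91 genes (82.4%), and over all genes tested it held the highest for 22.4%. Knockout library 2 held the lowest value for 54 of the 91 (59.3%), and over all genes for 17.4%. Relative to the mean of the MYCN-only libraries, the median gene stood at 0.60, −0.32 and −0.05 (log2) in knockout libraries 1, 2 and 3 and at −0.12, 0.09 and 0.06 in MYCN-only libraries 1, 2 and 3. Thus 85, 16 and 40 of the 91 genes were above the MYCN-only mean in knockout libraries 1, 2 and 3, and the knockout tumours spread to both sides of the MYCN-only tumours. Over all genes tested, 6471, 6273 and 6308 of 12821 were above that mean in the same libraries. As a share of all counts, the 91 tested genes took 1.05%, 0.769% and 0.752% in the knockout libraries and 0.824%, 0.852% and 0.925% in the MYCN-only libraries.

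The pattern ran through all complexes. The median deviation in knockout libraries 1, 2 and 3 was 0.64, −0.28 and 0.02 for complex I, and 0.73, −0.14 and 0.15 for complex II. It was 0.62, −0.33 and 0.02 for complex III, and 0.69, −0.41 and −0.26 for complex IV. ATP synthase was the least raised in knockout library 1, at 0.28, −0.44 and −0.14. Knockout library 1 was the highest of the 6 for 36 of 40 complex I genes, 7 of 8 of complex II, 8 of 9 of complex III, 14 of 17 of complex IV and 9 of 16 of ATP synthase. The summed level of the sympathetic markers, mostly th and dbh, was 13445, 5786 and 7709 CPM in knockout libraries 1, 2 and 3 and 7819, 9662 and 8823 CPM in the MYCN-only libraries. The median deviation of the same markers was −0.27, −0.57 and −0.42 in the knockout libraries and 0.31, −0.14 and −0.05 in the MYCN-only libraries, and 7 of 15 were above the MYCN-only mean in knockout library 1. The sum was thus highest in knockout library 1 and the median was not. Liver markers stood at medians of 2.15, −0.07 and 0.55 in knockout and −3.25, 2.56 and 0.73 in MYCN-only libraries, and macrophage markers at 1.85, 0.64 and −0.68 in knockout and 0.26, 0.12 and −0.50 in MYCN-only. Medians of the other tissue lists, apart from ovary and oocyte, were below 0 in every knockout library. In knockout libraries 1, 2 and 3 erythroid markers stood at −2.94, −0.42 and −1.48. Exocrine pancreas markers stood at −3.52, −1.75 and −2.81, and fibroblast and mural markers at −1.16, −0.87 and −2.12. The part of these cell types in the pattern was not tested.

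**Figure D2:**
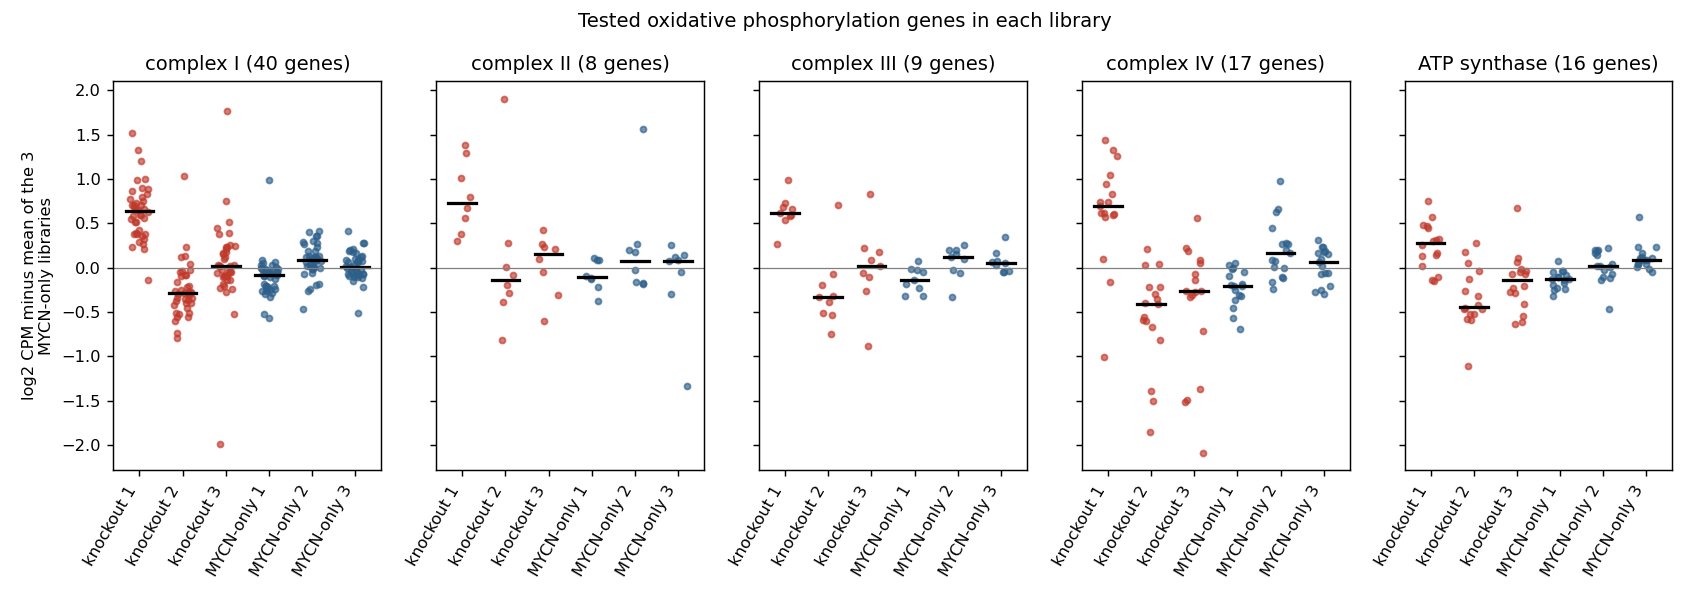
Deviation of each tested gene from its mean in the 3 MYCN-only libraries (y axis, log2 CPM) in each library (x axis; red, knockout; blue, MYCN-only), by complex, with black bars at the medians. In knockout library 1 nearly all genes of complexes I to IV lie above 0, with medians between 0.62 and 0.73 and 0.28 for ATP synthase, while in knockout library 2 every median is below 0.

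The direction of the genotype difference turned on whether knockout library 1 was included. The knockout libraries left without it, 2 and 3, are those with ovary and oocyte RNA (4983 and 6070 CPM, against 26.7 CPM in library 1). Without knockout library 1 the median log2 fold change was −0.17 over the 91 genes (−0.06 over all genes tested). By complex it was −0.13 for complex I, −0.05 for complex II, −0.13 for complex III, −0.31 for complex IV and −0.29 for ATP synthase. In that fit 3 genes were higher at an unadjusted p under 0.05 (cycsb, ndufaf2 and uqcrfs1), or 3.3% against 19.1% of all genes, and 10 were lower, or 11% against 13.6% of all genes. The 10 lower genes were cox4i2, cox5b2, cox6a2, cox6b2 and cox8a of complex IV, atp5g3b, atp5ib and atp5j (chosen after its values were seen) of ATP synthase, ndufs8a of complex I and uqcrc2a of complex III. After adjustment, edgeR called uqcrfs1 higher and cox6a2 lower in that fit, where 11.2% of all genes were called higher and 3.51% lower.

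With knockout libraries 2 and 3 left out, which are the ones with ovary and oocyte RNA, 36 of the 91 genes (39.6%) were higher at an unadjusted p under 0.05 and 0 were lower, where 10.2% of all genes were higher and 8.1% lower. These 36 were 16 genes of complex I, 3 of complex II, 5 of complex III, 10 of complex IV, 1 of ATP synthase and cytochrome c. That fit has a single knockout library, which is assumed to vary like the MYCN-only libraries. No oxidative phosphorylation gene passed an adjusted p under 0.05 in it, and it compares 1 tumour with 3 rather than the genotypes.

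In complex I, the entry point for NADH, 33 of 40 tested genes had a log2 fold change above 0, as did 6716 of the 12821 genes tested in all. Without knockout library 1 the median of the complex was −0.13. By edgeR at an unadjusted p under 0.05, 2 were higher (against 11.5% of all genes) and 0 lower (against 7.57%). ndufaf2, an assembly factor that joins late assembly intermediates of the complex, had 8, 11.5 and 19.2 CPM in knockout tumours and 5.41, 4.71 and 6.75 CPM in MYCN-only tumours. All knockout libraries were above all MYCN-only libraries (log2 fold change 1.20 ± 0.42 SE, edgeR, unadjusted p = 0.0264, adjusted p = 0.216). Unlike most genes of the complex, it was lowest among the knockout tumours in library 1. ndufa11, an accessory subunit of the membrane arm, had 42.7, 25 and 35.9 CPM in knockout and 18.4, 23.2 and 22.6 CPM in MYCN-only tumours. Its groups did not overlap either, though knockout library 2 was close to the MYCN-only range (log2 fold change 0.69 ± 0.28 SE, edgeR, adjusted p = 0.256).

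Another 2 accessory subunits of complex I had groups that overlapped. ndufa1 had 94.4, 26.6 and 42.9 CPM in knockout and 31.7, 31.4 and 35.7 CPM in MYCN-only tumours, and ndufa7 had 25.9, 12.7 and 17.2 CPM against 12.9, 13.2 and 13 CPM in MYCN-only. In both genes knockout libraries 1 and 3 were above all MYCN-only libraries, library 1 by far the most, and knockout library 2 was the lowest of the 6. Redox core subunits differed by less than their error between genotypes. ndufs1, which carries iron-sulfur clusters, had 246, 179 and 194 CPM in knockout and 160, 233 and 183 CPM in MYCN-only tumours. ndufv1, which binds NADH and flavin, had 140, 108 and 114 CPM in knockout and 117, 131 and 115 CPM in MYCN-only. Their log2 fold changes were 0.11 and −0.01, each within its standard error, and knockout library 1 was the highest in both.

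A further iron-sulfur subunit of the complex is encoded by a pair of genes. ndufs8a had 99.8, 45.9 and 55.2 CPM in knockout and 84.4, 87.2 and 68.3 CPM in MYCN-only tumours, so knockout libraries 2 and 3 were below all MYCN-only libraries and knockout library 1 above them. ndufs8b had 226 counts, or 7.36 CPM, in knockout library 3 and 0 counts in the other 5 libraries, where 3 counts would have been 0.0977 to 0.267 CPM. It did not enter the test. The other 2 genes left out by the filter were ndufa13 and the assembly factor ndufaf3, both listed at 0 in all 6 libraries. The acyl carrier proteins ndufab1a and ndufab1b, which serve both complex I and mitochondrial fatty acid synthesis, had 49.9 ± 21.9 and 40.3 ± 7.64 CPM in knockout and 45.8 ± 8.61 and 31.4 ± 8.34 CPM in the MYCN-only group (SD, n = 3 each).

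Complex II, succinate dehydrogenase, also works in the citrate cycle. All 8 of its genes had a log2 fold change above 0, none with an unadjusted p under 0.05. Without knockout library 1 the median of the complex was −0.05. The flavoprotein gene sdha had 380, 167 and 212 CPM in knockout and 236, 192 and 230 CPM in MYCN-only tumours. The iron-sulfur subunit gene sdhb had 123, 77.8 and 62.1 CPM in knockout and 82.3, 88.9 and 62.9 CPM in MYCN-only tumours, and the membrane anchor gene sdhc had 87.1, 24.5 and 51 CPM in knockout and 39.8, 42.5 and 47.9 CPM in MYCN-only. In all 3 genes knockout library 1 was above the MYCN-only range, and another knockout library was below it. The log2 fold changes were 0.20 ± 0.35, 0.17 ± 0.31 and 0.32 ± 0.45 (SE, edgeR), so the spread among the knockout tumours exceeded the difference between the groups.

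The remaining complex II genes were the second membrane anchor and the assembly factors. sdhdb had 38, 24.4 and 34.7 CPM in knockout and 27.5, 22.8 and 27.4 CPM in MYCN-only tumours, and its paralogue sdhda had at most 1.38 CPM in any library. sdhaf2, which helps to attach flavin to the flavoprotein, had 26.7, 26.2 and 26 CPM in knockout and 19.8, 24.4 and 20.9 CPM in MYCN-only tumours. It was one of the few genes level across the knockout tumours, above every MYCN-only library by a small margin (log2 fold change 0.28 ± 0.22 SE, edgeR, adjusted p = 0.523). sdhaf4 had 15, 4.97 and 7.03 CPM in knockout and 5.71, 5.42 and 7.27 CPM in MYCN-only tumours, and only knockout library 1 stood outside the MYCN-only range on the high side.

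In complex III the gene set apart was uqcrfs1, which encodes the Rieske iron-sulfur protein, the subunit that hands electrons from ubiquinol to cytochrome c1. It had 147, 151 and 165 CPM in knockout and 84.1, 106 and 89.6 CPM in MYCN-only tumours. The knockout tumours lay close together and all above the MYCN-only tumours, 1.66-fold in the fit (log2 fold change 0.73 ± 0.21 SE, edgeR, unadjusted p = 0.011, adjusted p = 0.192). The log2 fold change was 0.55 to 0.86 under all alternatives run. Its adjusted p was 0.0186 by DESeq2 and 0.0437 by edgeR without knockout library 1, and was over 0.05 under the other alternatives.

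The other genes of complex III did not share this. cyc1, cytochrome c1 itself, had 212, 105 and 149 CPM in knockout and 128, 141 and 127 CPM in MYCN-only tumours. The core subunit gene uqcrc1 had 245, 125 and 151 CPM in knockout and 161, 157 and 172 CPM in MYCN-only tumours, and the small subunit gene uqcrq had 67.9, 23.6 and 40.1 CPM in knockout and 33.7, 27.3 and 43.7 CPM in MYCN-only. Each of the 3 was highest in knockout library 1 and lowest in knockout library 2, on both sides of the MYCN-only tumours. The paralogues of the other core subunit, uqcrc2a and uqcrc2b, are described with the isoform pairs below.

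Cytochrome c carries electrons from complex III to complex IV and, once released from mitochondria, starts apoptosis. cycsb had 175, 103 and 130 CPM in knockout and 67.5, 90.7 and 83.2 CPM in MYCN-only tumours. All knockout libraries were above all MYCN-only libraries, with library 1 again the highest (log2 fold change 0.76 ± 0.27 SE, edgeR, unadjusted p = 0.0298, adjusted p = 0.221). Without knockout library 1 the log2 fold change was 0.53 (edgeR, adjusted p = 0.142).

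**Figure D3:**
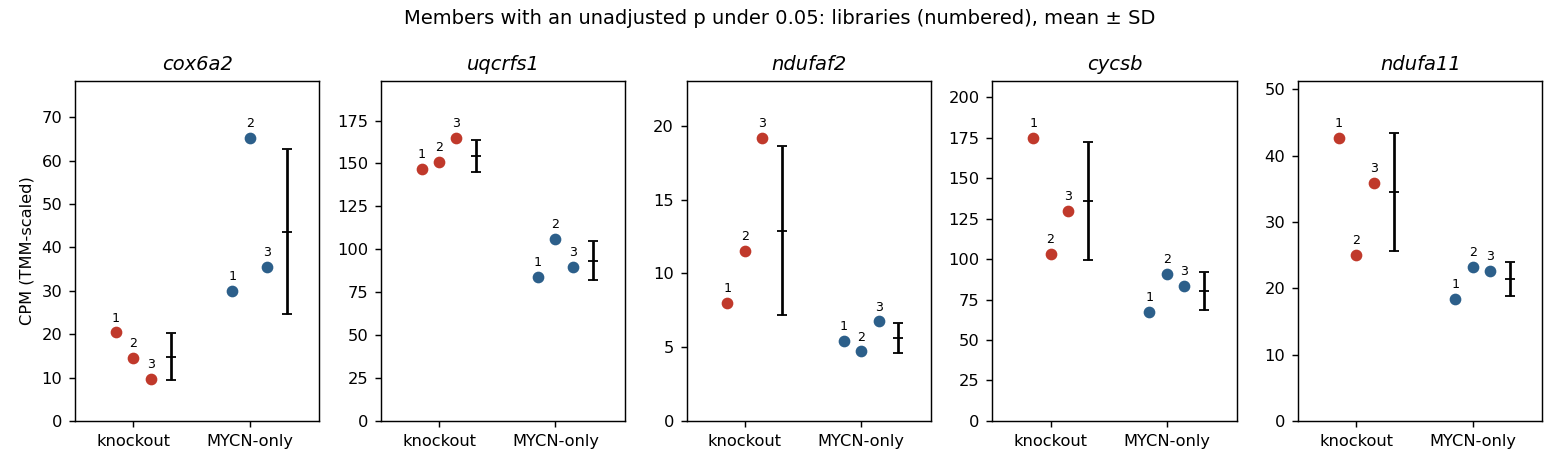
CPM (y axis, from 0) of the 5 genes with an unadjusted p under 0.05 in the numbered knockout (red) and MYCN-only (blue) libraries, with mean ± SD (n = 3 each) in black. In each panel the groups do not overlap. Relative to its mean, uqcrfs1 has the tightest knockout group (147 to 165 CPM). The highest MYCN-only value of cox6a2, 65.3 CPM, is library 2.

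Complex IV, cytochrome c oxidase, is surrounded by small subunits, several with isoform genes. The only gene with an unadjusted p under 0.05 was cox6a2, whose mammalian counterpart is the heart and skeletal muscle form of subunit 6A. It had 20.4, 14.5 and 9.61 CPM in knockout and 29.9, 65.3 and 35.6 CPM in MYCN-only tumours. All knockout libraries were below all MYCN-only libraries (log2 fold change −1.56 ± 0.43 SE, edgeR, unadjusted p = 0.00918, adjusted p = 0.187). Its highest value was in MYCN-only library 2, the library with the highest muscle markers. Liver markers and fibroblast and mural markers also had their highest sums there (27483 and 2417 CPM). MYCN-only library 3 had the lowest muscle marker sum of all libraries (312 CPM), and its cox6a2 level was above every knockout library. Without MYCN-only library 2 the log2 fold change was −1.12 (edgeR, unadjusted p = 0.0351, adjusted p = 0.395). By DESeq2 its adjusted p was 0.0193 and by edgeR without knockout library 1 it was 0.042; over all edgeR and limma-voom alternatives it lay between 0.042 and 0.423.

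Another 2 complex IV genes were also high in MYCN-only library 2. cox5b2 had 31.7, 9.75 and 12.3 CPM in knockout and 21.9, 69.9 and 29.3 CPM in MYCN-only tumours (log2 fold change −1.17 ± 0.62 SE, edgeR, adjusted p = 0.35). cox7a1, whose mammalian counterpart is the muscle form of subunit 7A, had 35.7, 8.33 and 18.4 CPM in knockout and 14.8, 34.2 and 21.1 CPM in MYCN-only tumours. In both genes MYCN-only library 2 was the highest of its group, and in cox7a1 knockout library 1 was about as high. Of the 15 muscle markers tested, 13 had log2 fold changes below 0. The part of muscle RNA in the values of these genes and of cox6a2 was not tested.

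The isoforms of subunits 4 and 5A showed the split between knockout tumours to different degrees. cox4i1, the main form of the regulatory subunit 4, had 300, 130 and 155 CPM in knockout and 183, 220 and 186 CPM in MYCN-only tumours, which gave a log2 fold change of −0.01 ± 0.36 SE. cox4i2, known in mammals as the oxygen-responsive form, had 16.4, 6.2 and 3.84 CPM in knockout and 11.2, 13.2 and 8.89 CPM in MYCN-only. cox5aa had 259, 145 and 141 CPM in knockout and 136, 177 and 199 CPM in MYCN-only. In all 3 genes knockout library 1 was above every MYCN-only library, while knockout libraries 2 and 3 were below every one for cox4i1 and cox4i2 and within their range for cox5aa. cox5ab was level, at 61.2, 48.9 and 60.5 CPM in knockout and 50.3, 57.3 and 64.1 CPM in MYCN-only tumours.

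Knockout library 1 stood furthest from the rest among the small subunits. cox6b1 had 99.3, 27.7 and 14.1 CPM in knockout and 28.3, 43.9 and 39.2 CPM in MYCN-only tumours. cox8b had 165, 53.4 and 54.3 CPM in knockout and 56.8, 79.6 and 63 CPM in MYCN-only, and cox8a had 180, 57.6 and 53.1 CPM in knockout and 90.6, 73.9 and 99.1 CPM in MYCN-only. In each, knockout libraries 2 and 3 lay below all MYCN-only libraries and knockout library 1 above them. cox6c had 121, 52 and 57.7 CPM in knockout and 42.4, 58 and 52.7 CPM in MYCN-only tumours, where libraries 2 and 3 were within the MYCN-only range (log2 fold change 0.59 ± 0.37 SE, edgeR, adjusted p = 0.42). cox6b2 and cox7a2a had log2 fold changes of −0.02 and 0.21. ndufa4 and ndufa4l carry complex I names, though mammalian NDUFA4 is now counted with complex IV. ndufa4l had 165, 73.2 and 100 CPM in knockout and 95.9, 133 and 106 CPM in MYCN-only tumours, and the lower ndufa4 varied between 1.89 and 10.5 CPM in knockout and between 5.42 and 15.6 CPM in MYCN-only.

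ATP synthase had catalytic genes that were not raised in knockout library 1. atp5a1, the alpha subunit of the catalytic head, had 979, 1115 and 1164 CPM in knockout and 907, 1203 and 1138 CPM in MYCN-only, giving a log2 fold change of 0.00 ± 0.20 SE. atp5b, the beta subunit, had 1076, 1135 and 1109 CPM in knockout and 928, 1337 and 1261 CPM in MYCN-only, a log2 fold change of −0.09 ± 0.21 SE. In both genes all knockout libraries lay within the MYCN-only range. atp5d, the delta subunit, had 71.6, 47.6 and 60.3 CPM in knockout and 64.7, 73 and 75.5 CPM in MYCN-only tumours, and atp5f1, a subunit of the peripheral stalk, had 220, 161 and 166 CPM against 176, 231 and 200 CPM in MYCN-only, both with groups that overlapped. The paralogues atp5ia and atp5ib, which encode the small membrane subunit e, had log2 fold changes of −0.21 ± 0.44 and −0.43 ± 0.35 SE.

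The proton-carrying ring of ATP synthase is built of subunit c, whose genes encode near-identical mature proteins. atp5g1 had 138, 124 and 162 CPM in knockout and 99.3, 92.3 and 114 CPM in MYCN-only tumours, with every knockout library above every MYCN-only library (log2 fold change 0.47 ± 0.22 SE, edgeR, adjusted p = 0.298). atp5g3b had 403, 311 and 337 CPM in knockout and 410, 417 and 525 CPM in MYCN-only tumours, with every knockout library below (log2 fold change −0.36 ± 0.22 SE, edgeR, adjusted p = 0.407). atp5g3a had 109, 73.1 and 83.4 CPM in knockout and 74.3, 87.9 and 103 CPM in MYCN-only, a fold change of 0.00 on the log2 scale. The shares of near-identical genes depend on how reads that match several copies were counted, which is not given in the sources used here.

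Ratios between related genes within one library do not depend on how that library was scaled, and 13 of 14 pairs could be compared. In 4 pairs the groups did not overlap, each with p = 0.1 by an exact two-sided permutation test, the smallest that 3 libraries against 3 can give, and 0.325 after Benjamini-Hochberg adjustment over the 13 pairs. Of single genes tested, 11.6% had every knockout library above and 12.3% every one below, and no such share was computed for pairs. The 4 pairs are not separate results. atp5g3b enters both atp5g pairs, and cox6a2, atp5g1 and atp5g3b also separated the groups by level. The log2 ratio of cox6a1 to cox6a2 was 3.23, 3.10 and 3.71 in knockout and 1.64, 0.61 and 1.91 in MYCN-only tumours, a difference of 1.96 between the means. On the CPM scale cox6a2 made up 9.64%, 10.4% and 7.11% of the pair in knockout and 24.3%, 39.6% and 21% in MYCN-only tumours. Knockout library 1 lay between the other knockout libraries here, and the MYCN-only library with the lowest ratio was library 2, with its high muscle markers. MYCN-only library 3, with the lowest muscle marker sum (312 CPM), had a ratio of 1.91, still below every knockout library.

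The log2 ratio of atp5g1 to atp5g3b was −1.54, −1.33 and −1.06 in knockout and −2.04, −2.18 and −2.20 in MYCN-only tumours, and that of atp5g3a to atp5g3b differed by 0.36 between the means. The log2 ratio of uqcrc2a to uqcrc2b was −0.43, −0.38 and −1.05 in knockout and 0.01, −0.13 and −0.10 in MYCN-only tumours, a difference of −0.55. uqcrc2a had 107, 62.5 and 48 CPM in knockout and 75.6, 102 and 91.1 CPM in MYCN-only tumours, and uqcrc2b had 144, 81.5 and 99.3 CPM in knockout and 75.2, 112 and 97.3 CPM in MYCN-only. Neither paralogue separated the groups by its level, while their ratio did. The other 9 pairs overlapped, among them cox4i1 to cox4i2 with means of 4.64 in knockout and 4.15 in MYCN-only tumours (exact permutation p = 0.3).

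**Figure D4:**
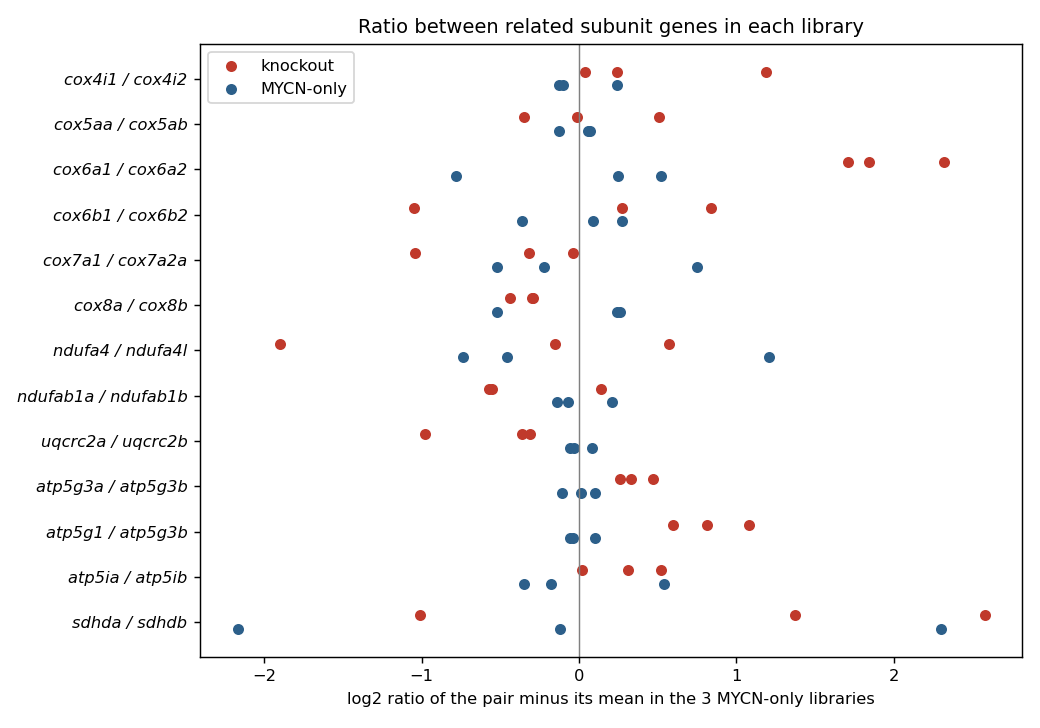
Log2 ratio of 13 pairs of related genes (y axis) in each library, minus the mean of the 3 MYCN-only libraries (x axis; red, knockout; blue, MYCN-only). The red points are clear of the blue ones for cox6a1 to cox6a2, uqcrc2a to uqcrc2b, atp5g3a to atp5g3b and atp5g1 to atp5g3b, with differences between the means of 1.96, −0.55, 0.36 and 0.83.

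Genes around oxidative phosphorylation did not follow a single course. Assembly factors of the respiratory complexes outside the naming rule had a median log2 fold change of 0.31, with 29 of 37 above 0; by unadjusted p under 0.05, 5 were higher (13.5%, near the 11.5% of all genes) and 0 lower. Their median stood above the MYCN-only mean in all 3 knockout libraries, at 0.41, 0.18 and 0.29. cox17, the copper chaperone of complex IV, had 36, 46.9 and 65.2 CPM in knockout and 18.9, 17.2 and 18.7 CPM in MYCN-only tumours (log2 fold change 1.43 ± 0.29 SE, edgeR, adjusted p = 0.174). uqcc2, an assembly factor of complex III, had 26.4, 20.9 and 24 CPM in knockout and 10.4, 11.1 and 12.6 CPM in MYCN-only (log2 fold change 1.06 ± 0.25 SE, edgeR, adjusted p = 0.174). Both genes had all knockout libraries above all MYCN-only libraries, at or above 20.9 CPM in knockout and at or below 18.9 CPM in MYCN-only. higd1a, a hypoxia-induced protein that associates with the respiratory chain, had 128, 31.1 and 70.3 CPM in knockout and 19.5, 33.3 and 33.5 CPM in MYCN-only tumours, and its groups overlapped.

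Proteins of the mitochondrial ribosome, which translates the subunits encoded by mitochondrial DNA, had a median log2 fold change of 0.43, with 63 of 68 above 0; by unadjusted p under 0.05, 14 were higher (20.6%, against 11.5% of all genes) and 0 lower. Every knockout library was above every MYCN-only library for 31 of the 68, where 11.6% of all genes were. Their median deviation was 0.34, 0.31 and 0.63 in knockout libraries 1, 2 and 3, so this list did not share the split of knockout libraries 1 and 2. Without knockout library 1, 15 were higher (22.1%, against 19.1% of all genes), and with knockout libraries 2 and 3 left out 6 were higher (8.82%, against 10.2%), so in those fits the counts were near the share over all genes. The median was 0.52 and 0.33 in those 2 fits, with 61 and 58 of 68 above 0. mrps30 had 47.5, 59.4 and 70.9 CPM in knockout and 36.6, 37.7 and 34.7 CPM in MYCN-only tumours (log2 fold change 0.71 ± 0.23 SE, edgeR, adjusted p = 0.208), and mrps23 and mrps28 had log2 fold changes of 1.69 and 1.41. Each of these genes was highest in knockout library 3.

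Protein import and inner membrane organisation had a median of 0.21, and at an unadjusted p under 0.05 it had 6 of 39 genes higher (15.4%, against 11.5% of all genes) and 1 lower (2.56%, against 7.57%). Without knockout library 1, 5 were higher (12.8%, against 19.1%) and 3 lower (7.69%, against 13.6%). With knockout libraries 2 and 3 left out, 3 were higher (7.69%, against 10.2%). The import cochaperone tomm34 had 22.8, 22.1 and 28.2 CPM in knockout and 12.2, 10.2 and 11.6 CPM in MYCN-only tumours, and the intermembrane chaperone timm8b had 15.9, 19.8 and 26 CPM in knockout and 11.7, 12.3 and 9.81 CPM in MYCN-only. letm1, an inner membrane cation exchanger, went the other way, with 87.3, 114 and 105 CPM in knockout and 143, 159 and 155 CPM in MYCN-only. In these 3 genes the groups did not overlap, with edgeR adjusted p-values of 0.174, 0.211 and 0.221; the log2 fold change was 0.87 for timm8b and −0.58 for letm1.

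Pathways that feed the chain had medians below 0, which for the citrate cycle turned with the libraries included. In the citrate cycle 16 of 20 genes were below 0, with a median of −0.16 and none with an unadjusted p under 0.05; with knockout libraries 2 and 3 left out, 13 of 20 were above 0 and the median was 0.11. Its gene with the smallest p, idh2, had 360, 367 and 314 CPM in knockout and 403, 544 and 515 CPM in MYCN-only tumours. In fatty acid oxidation 13 of 17 genes were below 0, with a median of −0.37 and 1 lower at an unadjusted p under 0.05 (5.88%, against 7.57% of all genes). That gene, hadhb, the thiolase of the trifunctional protein, had 96.2, 84.8 and 98.4 CPM in knockout and 118, 164 and 254 CPM in MYCN-only tumours (log2 fold change −0.94 ± 0.32 SE, edgeR, adjusted p = 0.213). Both genes had all knockout libraries below all MYCN-only libraries. As a list, fatty acid oxidation had median deviations of −0.24, −0.28 and −0.37 in knockout libraries 1, 2 and 3. In MYCN-only libraries 1, 2 and 3 they were −0.64, 0.52 and 0.12, so the knockout medians lay within the MYCN-only range.

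Among 29 electron donors, carriers and exchangers the median was −0.04; 2 were higher (6.9%, against 11.5% of all genes) and 0 lower by unadjusted p under 0.05. coq5, a methyltransferase of ubiquinone synthesis, had 19, 13.9 and 18.3 CPM in knockout and 11.4, 7.56 and 9.41 CPM in MYCN-only tumours. ucp2, an inner membrane carrier, had 447, 166 and 251 CPM in knockout and 128, 171 and 92.3 CPM in MYCN-only tumours, and its groups overlapped only through knockout library 2. Without knockout library 1 this list had 3 genes higher (10.3%, against 19.1% of all genes) and 7 lower (24.1%, against 13.6%), with a median of −0.50. With knockout libraries 2 and 3 left out it had 4 higher (13.8%, against 10.2%) and 0 lower, with a median of 0.21.

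Glycolysis was split, 4 of 30 genes being higher (13.3%, against 11.5% of all genes) and 3 lower (10%, against 7.57%) by unadjusted p under 0.05. Its median of 0.29 was −0.31 without knockout library 1, while with knockout libraries 2 and 3 left out it was 0.46, with 10 genes higher (33.3%, against 10.2%) and 0 lower. tpi1a, triosephosphate isomerase, had 22, 59.5 and 90.3 CPM in knockout and 13.8, 9.42 and 9.75 CPM in MYCN-only tumours (log2 fold change 2.38 ± 0.53 SE, edgeR, adjusted p = 0.174). pkma, a pyruvate kinase, had 1018, 504 and 420 CPM in knockout and 283, 317 and 318 CPM in MYCN-only, and hk2, a hexokinase, had 75.9, 278 and 165 CPM in knockout and 39.9, 83.9 and 40.6 CPM in MYCN-only. tpi1a and pkma had groups that did not overlap, but knockout library 1 was the lowest knockout library for tpi1a and hk2 and the highest for pkma. By library, the glycolysis list had median deviations of 0.62, −0.27 and −0.20 in knockout libraries 1, 2 and 3. Those of oxidative phosphorylation were similar, at 0.60, −0.32 and −0.05. In MYCN-only libraries 1, 2 and 3 the glycolysis medians were −0.38, 0.38 and 0.03.

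The 22 genes of mitochondrial DNA expression and its regulators had a median of −0.05, and by unadjusted p under 0.05 these had 0 higher and 2 lower (9.09%, near the 7.57% of all genes). The first was esrrga, an estrogen-related receptor of a family known in mammals to drive oxidative phosphorylation genes, with 4.1, 5.57 and 2.77 CPM in knockout and 12.1, 26.8 and 19.2 CPM in MYCN-only tumours (log2 fold change −2.22 ± 0.44 SE, edgeR, adjusted p = 0.174). The other was tfb1m, the mitochondrial ribosomal RNA methyltransferase, with 21.8, 20.3 and 21.6 CPM in knockout and 29.1, 32.3 and 29.7 CPM in MYCN-only (log2 fold change −0.52 ± 0.21 SE, edgeR, adjusted p = 0.258). Both were below the MYCN-only range in all 3 knockout libraries. esrra (chosen after its values were seen), of the same receptor family as esrrga, was more abundant and its groups overlapped. It had 39.2, 40.8 and 31.1 CPM in knockout and 41.6, 38 and 43.7 CPM in MYCN-only tumours (log2 fold change −0.15 ± 0.22 SE, edgeR, adjusted p = 0.743). A link between these genes and the levels of the oxidative phosphorylation genes was not tested. Of the cytosolic ribosomal proteins, a list added after the data were seen, 78 of 78 were below 0 and 11 were lower at an unadjusted p under 0.05 (14.1%, against 7.57% of all genes), with a median of −0.28 and deviations of −0.09, −0.48 and −0.33 in knockout libraries 1, 2 and 3. Knockout library 2 held the lowest value for 62 of the 78 (79.5%, against 17.4% of all genes). Without knockout library 1, 47 of the 78 were lower (60.3%, against 13.6% of all genes), and with knockout libraries 2 and 3 left out 31 were above 0, 4 were lower (5.13%, against 8.1%) and the median was −0.08.

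**Figure D5:**
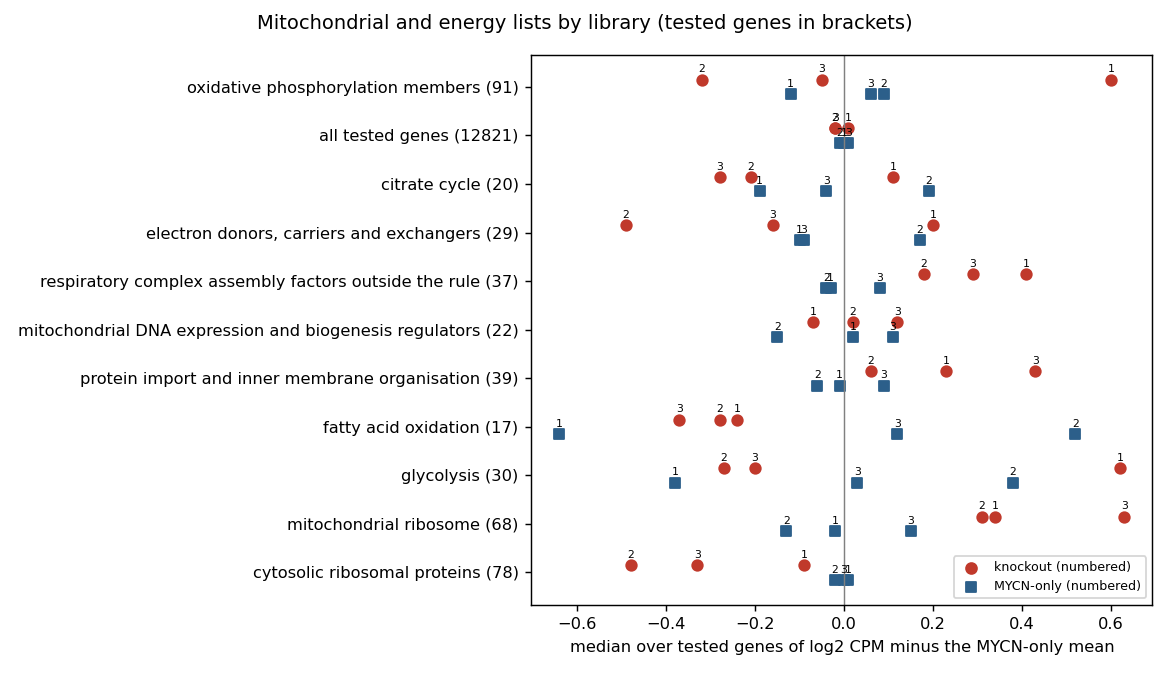
Median over the tested genes of each list of the deviation from the MYCN-only mean (x axis, log2 CPM) in each numbered library (red circles, knockout; blue squares, MYCN-only). Oxidative phosphorylation spreads from −0.32 to 0.60 across the knockout libraries. Glycolysis spreads in a similar way, from −0.27 to 0.62, while the mitochondrial ribosome lies at 0.31 to 0.63 in all 3.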

How the data were processed

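RNA-seq libraries were made from total RNA of 3 knockout and 3 MYCN-only tumours with a stranded, paired-end kit, per the labels' protocols. The authors deposited raw read counts per gene symbol, for which the submitters' processing notes name featureCounts 1.4.6, Subread, Bowtie2 2.2.6, TopHat2 2.0.14 and the danRer10 build. How strand and multiply mapped reads were counted is not given in the sources used here. Values of near-identical, overlapping or antisense genes are therefore uncertain.

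From these counts, genes were kept by filterByExpr (12821 of 14781; 508 were 0 in all libraries), scaled by TMM and tested with edgeR 4.0.16 (R 4.3.3) by the quasi-likelihood F test on genotype alone, with Benjamini-Hochberg adjustment over all genes tested and a threshold of 0.05. CPM are computed here from the deposited counts; deviations use log2 CPM with a prior count of 2. The biological coefficient of variation was 52.5%. Replicate libraries differed well beyond sampling noise (chi-square of counts at least 65.2 per degree of freedom), so none was merged. Group and replicate came from the sample titles. The floor for a count of 0 is 3 counts and covers counting error only. The fit was tested on simulated counts, where the conditions for passing were set at a lower variation than that of these data. That check does not show how many true changes the fit would miss here.

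All 94 symbols matched RefSeq names, 19 of them as older synonyms. Named genes were, per complex, the 4 tested genes with the smallest p, the defining subunits, isoform pairs, genes removed by the filter, and up to 3 genes of the smallest p per neighbouring list. Members, lists and this rule were chosen with earlier results of these data known, and some genes are not reported here by name. One entry of the citrate cycle list that is another gene in zebrafish was taken out after the data were seen. Alternatives were other scalings, filters and tests (DESeq2 1.42.0, limma-voom with limma 3.58.1), the replicate number as a block, each library left out in turn, and knockout libraries 2 and 3 left out together.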

Additional observations from a re-analysis of the deposited data

How the results depend on the processing

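At an adjusted p under 0.05, 0 genes passed in the edgeR test, 1323 in DESeq2 and 1 in limma-voom, 0 to 1923 when single libraries were left out (1923 without knockout library 1, 4 without MYCN-only library 2) and 9 with knockout libraries 2 and 3 left out. Of the 91 oxidative phosphorylation genes, 4 were higher at an unadjusted p under 0.05, but 2 under upper-quartile scaling, 2 in limma-voom, 36 with knockout libraries 2 and 3 left out, and 0 to 6 with single libraries left out (0 without MYCN-only library 1, 1 without MYCN-only library 3 or knockout library 3, 2 without MYCN-only library 2). Lower genes numbered 1, but 0 with knockout libraries 2 and 3 left out and 1 to 10 with single libraries left out, 10 being without knockout library 1. The median log2 fold change with that pair left out was 0.60 over all members (−0.05 over all genes tested), 0.65 for complex I, 0.73 for complex II, 0.61 for complex III, 0.63 for complex IV and 0.28 for ATP synthase. With single libraries left out it was −0.17 to 0.29 over all members, −0.05 to 0.35 for complex II, −0.31 to 0.35 for complex IV and −0.29 to 0.03 for ATP synthase. Upper-quartile scaling moved the median from 0.16 to −0.02 over all members and from 0.14 to −0.02 for complex IV, which was −0.01 in limma-voom. The causes were not tested. Shares over all genes at the unadjusted threshold are given above for the main fit and for the fits without knockout library 1 and without knockout libraries 2 and 3. For the other fits, the one with the replicate number as a block included, they are not given here. Member counts in those fits cannot be read as more or fewer than the share over all genes.

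Deviations of samples with the same number, 1, 2 and 3, had correlations of −0.0928, −0.153 and 0.19. Those of samples with different numbers lay between −0.163 and 0.198. A pairing of the tumours was not tested in any other way. With the replicate number as a block, 8 genes passed the adjusted threshold and 2 oxidative phosphorylation genes were higher at an unadjusted p under 0.05, and the log2 fold change of atp5g3a was −0.01, of cox6b1 −0.16, of cox8a −0.10 and of ndufa4l −0.05.

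Of 48 named genes with a fold change, 32 changed sign at least once and 16 never; 77 of 719 values had the other sign. Under upper-quartile scaling, the log2 fold change was −0.18 for atp5a1, −0.17 for atp5g3a, −0.08 for cox5aa, −0.02 for cox8a, −0.15 for ndufa4l, −0.05 for ndufab1a, −0.07 for ndufs1 and −0.08 for uqcrc1. In limma-voom it was −0.01 for atp5g3a, −0.16 for cox6b1, −0.11 for cox8a and −0.06 for ndufa4l. With the stricter filter it was 0.00 for atp5a1 and −0.01 for atp5g3a, and with no filter 0.00 for cox4i1 and ndufv1. With knockout libraries 2 and 3 left out it was −0.14 for atp5a1, 0.02 for atp5d, 0.13 for atp5f1, 0.42 for atp5ia, 0.18 for atp5ib, 0.63 for cox4i1, 0.57 for cox4i2, 0.10 for cox5ab, 0.61 for cox6b2, 0.63 for cox7a1, 0.25 for ndufa4, 0.33 for ndufs8a, 0.22 for ndufv1 and 0.27 for uqcrc2a. With single libraries left out, the ranges were −0.11 to 0.11 for atp5a1, −0.24 to 0.04 for atp5b, −0.18 to 0.13 for atp5g3a, −0.67 to 0.13 for atp5ia, −0.46 to 0.21 for cox4i1, −1.15 to 0.02 for cox4i2, −0.26 to 0.24 for cox5aa, −0.10 to 0.08 for cox5ab, −0.83 to 0.78 for cox6b1, −0.48 to 0.21 for cox6b2, −0.80 to 0.23 for cox7a1, −0.14 to 0.42 for cox7a2a, −0.67 to 0.44 for cox8a and −0.30 to 0.72 for cox8b. They were −0.06 to 0.44 for cyc1, −0.90 to 0.27 for ndufa4, −0.37 to 0.24 for ndufa4l, −0.28 to 0.36 for ndufab1a, −0.04 to 0.29 for ndufs1, −0.13 to 0.08 for ndufv1, −0.21 to 0.42 for sdha, −0.03 to 0.83 for sdhaf4, −0.16 to 0.36 for sdhb, −0.20 to 0.66 for sdhc, −0.24 to 0.27 for uqcrc1, −0.07 to 0.35 for uqcrc2b and −0.13 to 0.62 for uqcrq. Depth limited sdhda, which at no more than 1.38 CPM gives no dependable fold change. ndufs8b, with counts in 1 library alone (226), did not enter the test and has no fold change.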
